A study of Mus musculus with 4 samples.

Results

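Integrins, laminins and the proteins that tie basement membranes together were examined in sorted cells of the fetal mouse gonad. The genes were taken by symbol: all numbered integrin alpha and beta genes, the lettered alpha genes Itgal, Itgam, Itgav, Itgax, Itgae and Itgad, all laminin chain genes, and the linkers Nid1, Nid2, Hspg2 and Agrn. The binding proteins whose symbols begin with Itgb1bp or Itgb3bp were left out. This gave 42 of the 20299 genes listed, with 18 integrin alpha genes, 9 integrin beta genes, 11 laminin genes and 4 linkers. CF1 females had been mated with TgOG2 males, and the fetuses were collected at 15.5 days post coitum (dpc). The transgene drives EGFP from the Oct4 promoter, which marks germ cells. The 4 groups were male germ cells, female germ cells, male gonadal somatic cells and female gonadal somatic cells, all of this cross and age, with no treatment named in the labels. Germ cells were the GFP-positive and somatic cells the GFP-negative fraction of a flow sort. Each group is 1 library of total RNA, depleted of ribosomal RNA and sequenced with its strand kept.

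Integrins are receptors made of an alpha and a beta chain that hold cells to the extracellular matrix and pass force and signals to the cytoskeleton. Laminins are trimers of an alpha, a beta and a gamma chain that assemble into the sheet of a basement membrane. Nidogens, perlecan (Hspg2) and agrin (Agrn) connect that sheet with type IV collagen and with the cell surface. In the fetal testis a basement membrane wraps the cords in which Sertoli cells enclose the germ cells, and in the fetal ovary it surrounds clusters of germ cells and pregranulosa cells. In mice, germ cells without Itgb1 colonise the gonad poorly.

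Levels are given as SPM, the deposited gene signal per 1000000 of its library after scaling. SPM compares 1 gene between libraries, and levels of different genes are compared only as SPM per kb of the length the files list. The estimated depth was 17.5 M to 24.9 M fragments per library, where M stands for 1000000. The 5 germ cell markers summed to 3179 SPM (male) and 2181 SPM (female) in germ cells, against 21.7 SPM (male) and 4.72 SPM (female) in somatic cells. For 8 lists of somatic markers, the summed level in the germ library as a percentage of that in the somatic library of the same sex was lowest for erythroid markers, at 0.966% in males and 0.833% in females. It was highest for endothelial markers in males, at 33.9%, and for Sertoli markers in females, at 14.4%. The male endothelial genes were uneven, with Pecam1 at 114%, Tek at 126% and Flt1 at 201%. Cdh5, Kdr, Tie1, Emcn and Esam ran from 3.83% to 44.5%. The Sertoli percentage in females compares low sums, with 38.9 SPM in female somatic cells, where Amh had 0.379 SPM and Dhh 0.253 SPM. The megakaryocyte markers, listed apart from these, were low in all libraries and stood at 141% in males and 78.3% in females. The median over the genes of the set at 1 SPM or more in somatic cells was 32.6% in males and 20.5% in females. The part of somatic RNA in the germ cell values was not tested. In these bulk fractions, fewer cells of a type and less RNA per cell cannot be told apart.

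Germ cells were compared with somatic cells, with the 2 sexes as the libraries of each cell type. Matrix genes and their receptors were mostly lower in germ cells. Of the 42 genes, 40 reached 1 SPM in at least 2 libraries and were tested, and 11 passed as lower in germ cells (27.5%; limma, adjusted p under 0.05 over all 14148 genes tested), against 5.56% of all genes tested. None passed as higher, against 2.50% of all genes, and 8.06% of all genes passed in either direction. At an unadjusted p under 0.05 in the same limma fit, 20 of the 40 were lower, against 2648 of the 14148 genes tested. By that rule 1, Itgae, was higher, against 1795 of all genes tested. Both germ libraries lay under both somatic libraries for 23 of the 40 genes (57.5%), against 33.8% of all genes tested. They lay over both for 3 genes (7.5%), Itgax and Itgae among them, against 28.5% of all genes. The median log2 difference, germ minus somatic on the log2(SPM + 0.5) scale, was -1.66 over the 40 genes and -0.11 over all genes tested.

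The genes that fell were the laminin chains Lama1, Lama4 and Lamc1, the linkers Nid1 and Hspg2, and the integrins Itga3, Itga5, Itga8, Itga9, Itgb5 and Itgb8. Their log2 differences ran from -1.96 for Lamc1 to -5.75 for Itgb8. By kind, 6 of 25 integrins, 3 of 11 laminin chains and 2 of 4 linkers fell, with median log2 differences of -1.27, -1.80 and -2.22. The 2 libraries of a cell type are the male and the female one and are not replicates. The spread behind each SE and p-value is therefore the difference between the sexes, moderated by limma over all genes. A gene that differed between the sexes could miss the threshold at a larger difference than that of Lamc1, as Itga4 did at -4.58. The labels do not say whether separate animals were used for each library. The p-values measure only how far these libraries lie apart. The calls depended on single libraries, and the number of the set that passed changed with the library left out. Each such fit leaves a cell type with 1 library, so log2 differences are given here in place of counts. With each library left out in turn, those of the 11 genes all stayed negative. They ran, for example, from -2.03 to -1.88 for Lamc1, from -6.08 to -3.70 for Nid1 and from -6.69 to -4.80 for Itgb8. With sex as a term in the fit, 18 passed as lower, and the number of all genes that passed as lower went from 786 to 1955. The 18 were the 11 genes above together with Itga4, Itga6, Itgav, Lama2, Lamb1, Lamc3 and Nid2. The number of all genes that passed as lower also changed with each library left out.

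**Figure D1:**
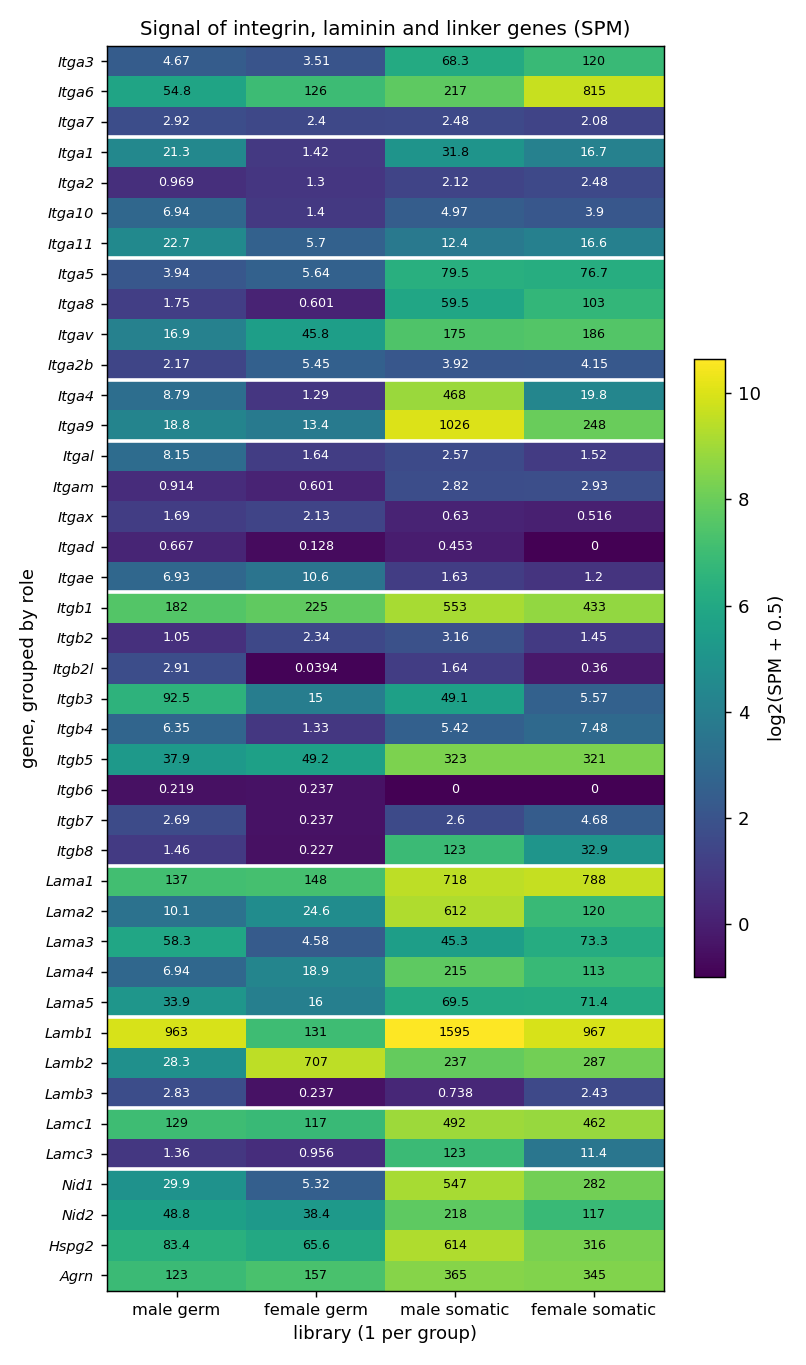
Level of genes of the set in the 4 libraries. Rows are genes grouped by role, columns are libraries (1 per group), the number in a cell is SPM and the colour is log2(SPM + 0.5). Lamb1 reaches 963 SPM in male germ cells and Lamb2 707 SPM in female germ cells.

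**Figure D2:**
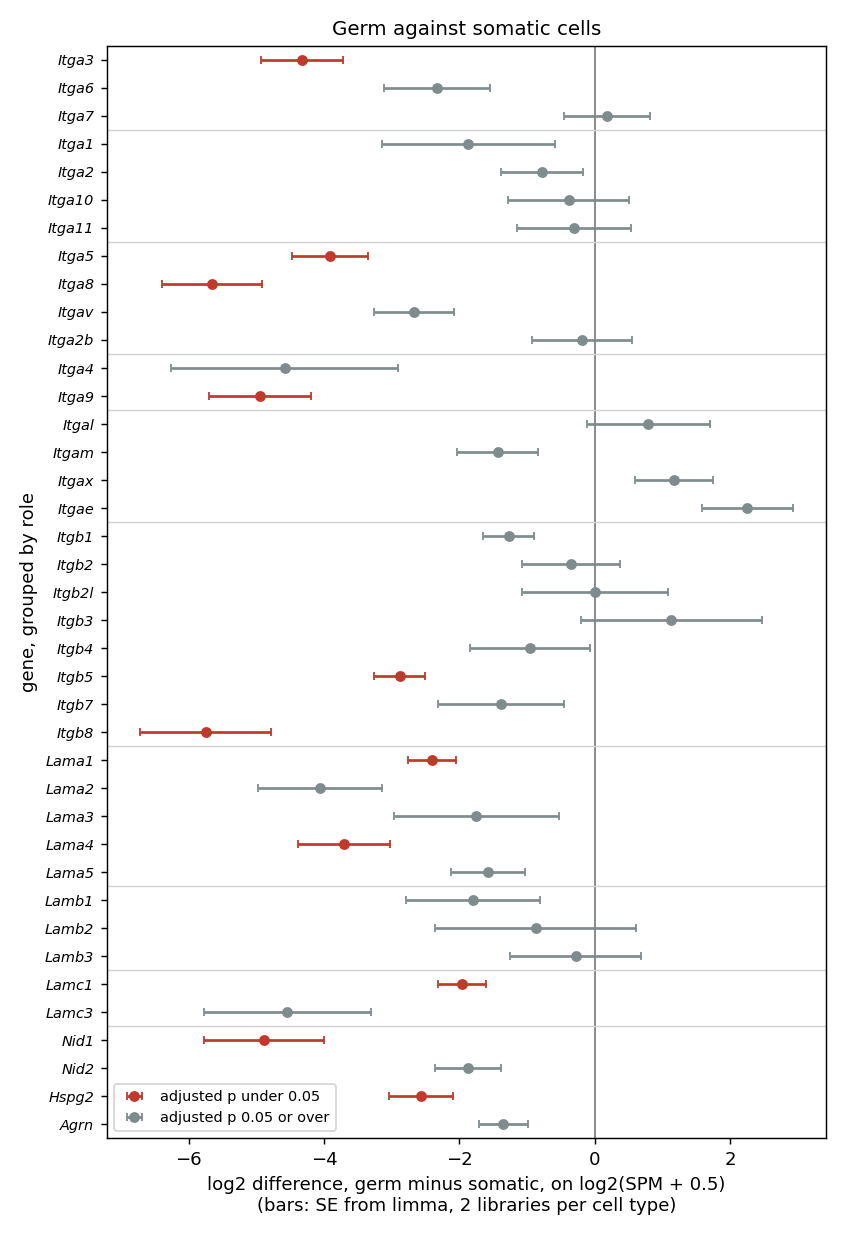
Log2 difference between germ and somatic cells for genes of the set that were tested, germ minus somatic on the log2(SPM + 0.5) scale. Points are limma estimates, bars are SE with 2 libraries per cell type, and red marks an adjusted p under 0.05. All 11 red points lie left of 0.

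Among the laminin alpha chains, Lama1 had the highest level per kb in all 4 libraries. Lama1 encodes the alpha chain of the earliest embryonic laminin (chromosome 17, 68046605 to 68171985, mm9) and stood at 137 SPM (male) and 148 SPM (female) in germ cells, against 718 SPM (male) and 788 SPM (female) in somatic cells. The sexes were close within each cell type and the cell types did not overlap, with a log2 difference of -2.40 ± 0.35 (SE, n = 2 per cell type; limma adjusted p = 0.0354). Lama4, a chain of vascular basement membranes, stood at 6.94 SPM (male) and 18.9 SPM (female) in germ cells, against 215 SPM (male) and 113 SPM (female) in somatic cells. The log2 difference of Lama4 was -3.70 ± 0.68 (SE, n = 2, limma adjusted p = 0.0435), again without overlap. Endothelial markers summed to 65.5 SPM (male) and 31.3 SPM (female) in germ cells, against 193 SPM (male) and 272 SPM (female) in somatic cells. Among them Pecam1, Tek and Flt1 were higher in the male germ than in the male somatic library, and the rest were lower. The part of endothelial cells in the Lama4 difference was not tested.

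Lama2, Lama3 and Lama5 did not pass. Lama2, the alpha chain of muscle and peripheral nerve laminin, stood at 10.1 SPM in the male and 24.6 SPM in the female germ library, against 612 SPM in the male and 119.7 SPM in the female somatic library (limma adjusted p = 0.0589). The male library was thus the lower of the germ pair and the higher of the somatic pair. Lama3, a chain of epithelial laminin, stood at 58.3 SPM (male) and 4.58 SPM (female) in germ cells, against 45.3 SPM (male) and 73.3 SPM (female) in somatic cells. The female germ library was far below the other 3, and male germ cells exceeded female germ cells 12.7-fold (interval 10.1 to 16.1); intervals here and below are exact 95% counting intervals. Lama5, found in most mature epithelial and endothelial basement membranes, stood at 33.9 SPM (male) and 15.96 SPM (female) in germ cells, against 69.5 SPM (male) and 71.4 SPM (female) in somatic cells, with a log2 difference of -1.58 ± 0.55 (limma adjusted p = 0.129).

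Per kb, Lama1 made up 57.1% of the alpha chain signal of male germ cells and 67.5% of that of female germ cells. In somatic cells it made up 40.8% in males and 65.1% in females. The chain in second place differed between libraries. It was Lama3 in male germ cells (22.4%), Lama4 in female germ cells (13.6%), Lama2 in male somatic cells (34.2%) and Lama4 in female somatic cells (14.7%).

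The laminin beta chains stood out in germ cells, where the leading chain was a different one in each sex. Lamb1 encodes the beta chain of embryonic laminins (chromosome 12, 31950159 to 32014504, mm9) and Lamb2 its counterpart at synapses and in the kidney filter (chromosome 9, 108382193 to 108392861, mm9). The 250 bases before their start sites are shown because these paired chains lie in opposite directions between male and female germ cells. They are from RefSeq (GRCm38.p6, plus strand, 5′ to 3′), at chr12:31265043-31265292 for Lamb1 and chr9:108479612-108479861 for Lamb2. Capitals mark GC boxes, the letters GGGCGG on either strand (CCGCCC on the strand shown), which factors such as Sp1 bind.
Lamb1: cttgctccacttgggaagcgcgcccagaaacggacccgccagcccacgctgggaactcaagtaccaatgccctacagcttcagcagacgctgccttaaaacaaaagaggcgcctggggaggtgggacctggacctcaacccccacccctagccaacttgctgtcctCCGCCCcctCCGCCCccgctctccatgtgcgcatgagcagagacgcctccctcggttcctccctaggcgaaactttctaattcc
Lamb2: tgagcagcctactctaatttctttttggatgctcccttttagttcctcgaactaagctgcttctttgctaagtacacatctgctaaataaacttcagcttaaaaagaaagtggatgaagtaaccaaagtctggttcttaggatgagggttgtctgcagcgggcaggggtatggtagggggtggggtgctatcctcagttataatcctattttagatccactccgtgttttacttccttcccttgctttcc
The Lamb1 window holds 2 GC boxes and 14 CpG sites, and the Lamb2 window holds no GC box and 3 CpG sites. Of 27025 genes with such a window, 32.9% hold a GC box, and the median number of CpG sites is 6. Of the 42 genes studied, 27 had an entry, of which 40.7% held a GC box, with a median of 11 CpG sites. A match of letters is a description and not a bound site.

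Lamb1 stood at 963 SPM in the male and 131 SPM in the female germ library, against 1595 SPM in the male and 967 SPM in the female somatic library. Male germ cells were thus level with female somatic cells, and female germ cells were far below the other 3 libraries. Lamb2 stood at 28.3 SPM (male) and 707 SPM (female) in germ cells, against 237 SPM (male) and 287 SPM (female) in somatic cells. Here female germ cells were the highest library and male germ cells the lowest. Lamb1 was higher in male germ cells 7.35-fold (interval 7.03 to 7.68), and Lamb2 was higher in female germ cells 24.99-fold (interval 23.2 to 26.9), on an estimated 754 fragments in male and 11826 in female germ cells. With 1 library on each side, ratios between the sexes were not tested and lack a replicate check.

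In percent of the beta chain signal per kb, Lamb1 made up 96.7% and Lamb2 2.92% in male germ cells, whereas Lamb1 made up 15.3% and Lamb2 84.7% in female germ cells. In somatic cells Lamb1 led in both sexes, with 86.7% in males and 76.5% in females. Neither chain passed between germ and somatic cells, with log2 differences of -1.80 ± 0.99 for Lamb1 and -0.87 ± 1.48 for Lamb2 (SE, n = 2 per cell type; limma adjusted p = 0.281 and 0.729). The Lamb2 difference turned with the library left out: it was 1.44 without male germ cells (limma adjusted p = 0.0303) and -3.18 without female germ cells (limma adjusted p = 0.0329).

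Genes within 30 kb of Lamb2 did not share 1 pattern. Usp19, 145 bases away on the same strand, had 346 SPM in the male and 199.7 SPM in the female germ library, the order opposite to that of Lamb2. Qrich1, 26556 bases away, had 255 SPM in the male and 705 SPM in the female germ library, and Klhdc8b, 18280 bases away on the other strand, had 9.01 SPM in the male and 34.9 SPM in the female germ library. Those 2 were higher in female germ cells, as was Lamb2. Qars, 17474 bases away, had 120.4 SPM in the male and 139 SPM in the female germ library, and Ccdc71, 13916 bases away, had 37.2 SPM in the male and 34.1 SPM in the female germ library. Lamb3, the beta chain of epithelial laminin, was low throughout, at 2.83 SPM (male) and 0.237 SPM (female) in germ cells, against 0.738 SPM (male) and 2.43 SPM (female) in somatic cells. Like Lama3, it was higher in male than in female germ cells, 11.98-fold (interval 4.47 to 44.9) with 4 female fragments.

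**Figure D3:**
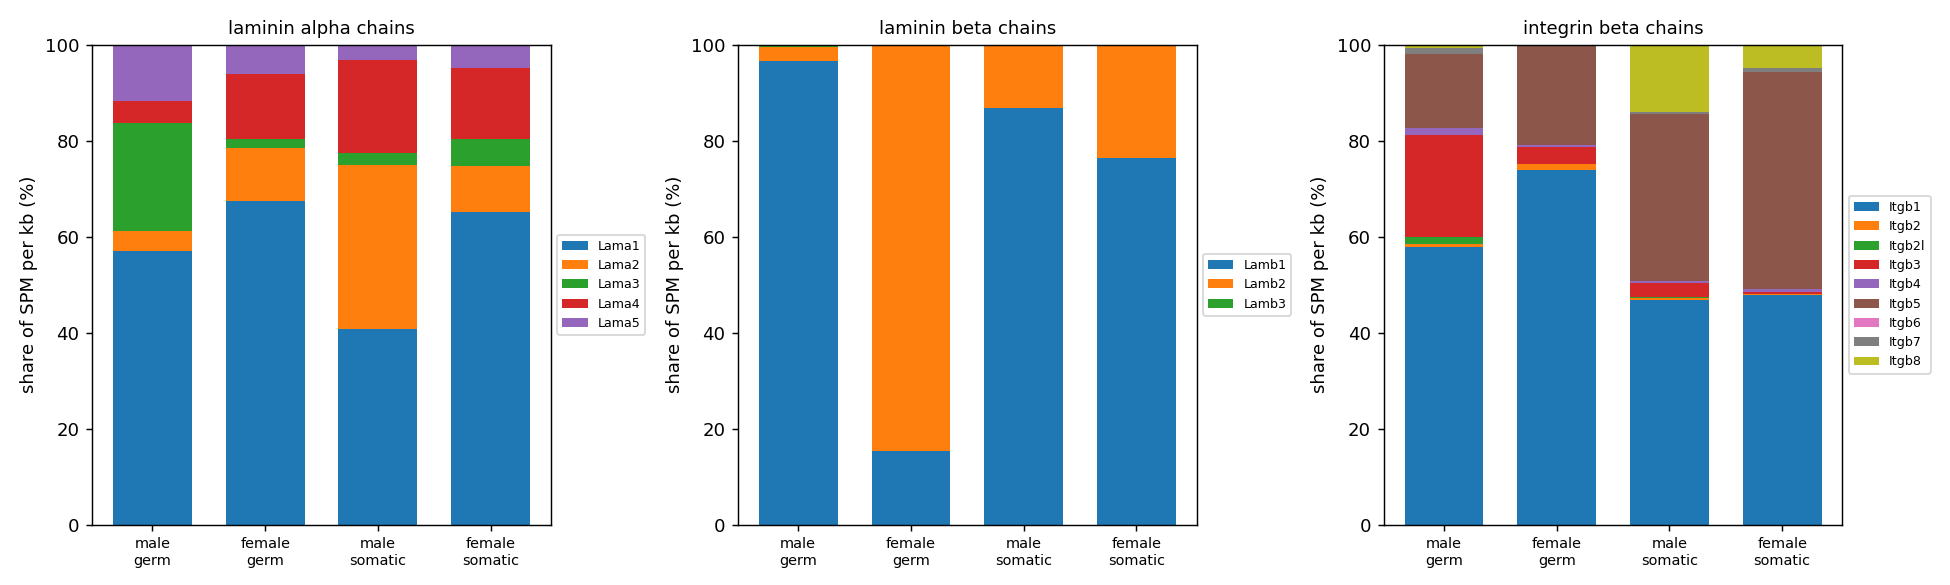
Share of each chain in its class, in percent of the summed SPM per kb, with 1 bar per library, for laminin alpha and beta chains and integrin beta chains. In the laminin beta class, Lamb2 takes 2.92% in male germ cells and 84.7% in female germ cells.

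Lamc1, the gamma chain of most laminins (chromosome 1, 155066052 to 155179916, mm9), had the pattern of Lama1. It stood at 129 SPM in the male and 117 SPM in the female germ library, against 492 SPM in the male and 462 SPM in the female somatic library, a log2 difference of -1.96 ± 0.35 (SE, n = 2 per cell type; limma adjusted p = 0.0422). The sexes were close and the cell types apart. Per kb it was the leading gamma chain everywhere, from 74.3% of the gamma signal in male somatic cells to 94.3% in female somatic cells. Lamc3, the least widespread gamma chain, stood at 1.36 SPM (male) and 0.956 SPM (female) in germ cells, against 123 SPM (male) and 11.4 SPM (female) in somatic cells (limma adjusted p = 0.0796). In somatic cells it was higher in males 10.8-fold (interval 9.52 to 12.2).

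All 4 linkers were lower in both germ libraries than in both somatic libraries, and Nid1 and Hspg2 passed. Nid1, which bridges laminin and type IV collagen (chromosome 13, 13529869 to 13604542, mm9), stood at 29.9 SPM (male) and 5.32 SPM (female) in germ cells, against 547 SPM (male) and 282 SPM (female) in somatic cells. Its log2 difference was -4.89 ± 0.89 (SE, n = 2 per cell type; limma adjusted p = 0.04303), and it passed with each library left out in turn, though not with upper-quartile scaling (limma adjusted p = 0.0562). Like the other 10 genes that fell, it did not pass with no filter on low values (limma adjusted p = 0.0784). Within germ cells Nid1 was higher in males 5.61-fold (interval 4.51 to 7.07). Hspg2, the heparan sulfate proteoglycan perlecan (chromosome 4, 137024718 to 137126545, mm9), stood at 83.4 SPM in the male and 65.6 SPM in the female germ library, against 614 SPM in the male and 316 SPM in the female somatic library, with a log2 difference of -2.57 ± 0.47 (limma adjusted p = 0.0437).

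Nid2, the second nidogen, stood at 48.8 SPM (male) and 38.4 SPM (female) in germ cells, against 218 SPM (male) and 117 SPM (female) in somatic cells (limma adjusted p = 0.0734). Agrn, which also clusters acetylcholine receptors at the nerve-muscle synapse, stood at 123 SPM (male) and 157 SPM (female) in germ cells, against 365 SPM (male) and 345 SPM (female) in somatic cells (limma adjusted p = 0.0799). It had the smallest difference of the linkers, -1.35 ± 0.37 on the log2 scale. Per kb, Agrn was the highest linker in germ cells, at 16.6 SPM per kb (male) and 21.1 SPM per kb (female), and Nid1 was the highest in male somatic cells, at 90.3 SPM per kb.

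Of the laminin-binding alpha chains Itga3, Itga6 and Itga7, Itga6 had the highest level per kb in all 4 libraries. Itga6 pairs with Itgb1 or Itgb4 and is a surface marker used for spermatogonial stem cells (chromosome 2, 71625140 to 71694815, mm9). It stood at 54.8 SPM in the male and 126 SPM in the female germ library, against 217 SPM in the male and 815 SPM in the female somatic library. Females were higher in both cell types, 2.29-fold (interval 2.15 to 2.45) in germ cells and 3.75-fold (interval 3.62 to 3.89) in somatic cells, and female somatic cells were far above the rest. Its germ minus somatic difference did not pass (-2.33 ± 0.78, SE, n = 2 per cell type; limma adjusted p = 0.118). Per kb, Itga6 made up 36.1% of the integrin alpha signal of male germ cells and 62.3% of that of female germ cells. Pregranulosa markers summed to 97.4 SPM and mesothelium markers to 121 SPM in male somatic cells, against 937 SPM and 504 SPM in female somatic cells, and their part in the Itga6 levels was not tested.

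Itga3, a laminin receptor of epithelia, stood at 4.67 SPM (male) and 3.51 SPM (female) in germ cells, against 68.3 SPM (male) and 119.7 SPM (female) in somatic cells. It fell in germ cells, with a log2 difference of -4.32 ± 0.60 (SE, n = 2 per cell type; limma adjusted p = 0.0352). Itga7, the laminin receptor of muscle, was low and even, from 2.08 to 2.92 SPM. Itgb4, the partner of Itga6 in hemidesmosomes, stood at 6.35 SPM (male) and 1.33 SPM (female) in germ cells, against 5.42 SPM (male) and 7.48 SPM (female) in somatic cells and did not pass (limma adjusted p = 0.511).

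Of the 4 alpha chains that recognise RGD sequences, Itga5 and Itga8 fell in germ cells. Itga5, of the fibronectin receptor, stood at 3.94 SPM in the male and 5.64 SPM in the female germ library, against 79.5 SPM in the male and 76.7 SPM in the female somatic library, a log2 difference of -3.91 ± 0.56 (SE, n = 2 per cell type; limma adjusted p = 0.0352). Itga8, a receptor of nephronectin, stood at 1.75 SPM (male) and 0.601 SPM (female) in germ cells, against 59.5 SPM (male) and 103 SPM (female) in somatic cells, a difference of -5.65 ± 0.74 (limma adjusted p = 0.0347). The germ level of Itga8 was 2.94% of the somatic level in males and 0.581% in females, the female value resting on 10 fragments in germ cells. Itgav, of the vitronectin receptors, stood at 16.9 SPM (male) and 45.8 SPM (female) in germ cells, against 175 SPM (male) and 186 SPM (female) in somatic cells and did not pass (-2.67 ± 0.59, limma adjusted p = 0.0569). Within germ cells Itgav was higher in females 2.72-fold (interval 2.42 to 3.06). Itga2b, of the platelet receptor, was low in all libraries, from 2.17 to 5.45 SPM, as were the 6 megakaryocyte markers.

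Itga9 and Itga4 are related chains that bind tenascin, fibronectin and the vascular adhesion molecule VCAM. Itga9 (chromosome 9, 118515827 to 118810121, mm9) stood at 18.8 SPM in the male and 13.4 SPM in the female germ library, against 1026 SPM in the male and 248 SPM in the female somatic library, a log2 difference of -4.95 ± 0.76 (SE, n = 2 per cell type; limma adjusted p = 0.0358). Per kb it was the leading integrin alpha chain of male somatic cells, with 44.7% of the alpha signal, against 10.7% in female somatic cells. Itga4 stood at 8.79 SPM (male) and 1.29 SPM (female) in germ cells, against 468 SPM (male) and 19.8 SPM (female) in somatic cells. Males were higher in both cell types, 6.804-fold (interval 4.31 to 10.9) in germ cells and 23.6-fold (interval 21.6 to 25.9) in somatic cells. With the somatic libraries so far apart, the germ minus somatic difference of -4.58 ± 1.68 did not pass (limma adjusted p = 0.142).

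None of the 4 collagen receptors passed, and Itga1, Itga10 and Itga11 were higher in male than in female germ cells. Itga1, which binds type IV collagen, stood at 21.3 SPM (male) and 1.42 SPM (female) in germ cells, against 31.8 SPM (male) and 16.7 SPM (female) in somatic cells. Female germ cells were the low library, and male germ cells exceeded them 15.01-fold (interval 9.88 to 23.4). Pelo, listed inside Itga1 on the same strand, had the opposite order, with 15.1 SPM in the male and 32.1 SPM in the female germ library. Itga11, a receptor of fibrillar collagen, stood at 22.7 SPM in the male and 5.698 SPM in the female germ library, against 12.4 SPM in the male and 16.6 SPM in the female somatic library, and Itga10, of cartilage, at 6.94 SPM (male) and 1.40 SPM (female) in germ cells, against 4.97 SPM (male) and 3.902 SPM (female) in somatic cells. For both, the somatic libraries lay between the germ libraries. Itga2, of platelets and epithelia, stayed between 0.969 and 2.48 SPM.

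Alpha chains of leukocytes were low in all 4 libraries and none passed. Itgae, of intraepithelial lymphocytes, stood at 6.93 SPM (male) and 10.6 SPM (female) in germ cells, against 1.63 SPM (male) and 1.197 SPM (female) in somatic cells. Both germ libraries were above both somatic libraries, and the difference of 2.25 ± 0.67 did not pass (SE, n = 2 per cell type; limma adjusted p = 0.0957). The listed span of Itgae overlaps Gsg2, the haspin kinase gene, on the other strand, and Gsg2 stood at 27.4 SPM in the male and 42.4 SPM in the female germ library, against 10.2 SPM in the male and 5.03 SPM in the female somatic library. The order of the libraries is the same for both genes, and with the use of strand in counting not given in the sources used here, their reads cannot be told apart.

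Itgal, of the lymphocyte receptor LFA-1, stood at 8.15 SPM (male) and 1.64 SPM (female) in germ cells, against 2.57 SPM (male) and 1.52 SPM (female) in somatic cells. Male germ cells were the high library. The 8 leukocyte markers summed to 7.31 SPM (male) and 5.15 SPM (female) in germ cells, against 145 SPM (male) and 45.6 SPM (female) in somatic cells. Most of the somatic sum was Lyz2, at 105 SPM (male) and 29.1 SPM (female). Itgam, of macrophages, stayed between 0.601 and 2.93 SPM and Itgax, of dendritic cells, between 0.516 and 2.13 SPM. Itgad was under 1 SPM in every library and was not tested.

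Among the beta chains Itgb1, the partner of most alpha chains, had the highest level per kb in every library. Itgb1 (chromosome 8, 131209554 to 131257479, mm9) stood at 182 SPM (male) and 225 SPM (female) in germ cells, against 553 SPM (male) and 433 SPM (female) in somatic cells. Germ and somatic libraries did not overlap, yet the difference of -1.27 ± 0.38 did not pass (SE, n = 2 per cell type; limma adjusted p = 0.0946). Itgb5, a partner of Itgav, stood at 37.9 SPM in the male and 49.2 SPM in the female germ library, against 323 SPM in the male and 321 SPM in the female somatic library, and its log2 difference of -2.88 ± 0.38 passed (limma adjusted p = 0.0350). Itgb8, another partner of Itgav that takes part in activating TGF-beta, stood at 1.46 SPM (male) and 0.227 SPM (female) in germ cells, against 123 SPM (male) and 32.9 SPM (female) in somatic cells, and its difference of -5.75 ± 0.97 passed as well (limma adjusted p = 0.0386).

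Itgb3, of the platelet and vitronectin receptors (chromosome 11, 104469314 to 104531785, mm9), was ordered by sex before cell type. It stood at 92.5 SPM (male) and 14.98 SPM (female) in germ cells, against 49.1 SPM (male) and 5.57 SPM (female) in somatic cells. Males were higher in both cell types, 6.17-fold (interval 5.41 to 7.05) in germ cells and 8.82-fold (interval 7.38 to 10.7) in somatic cells, and within each sex germ cells were above somatic cells. The germ minus somatic difference of 1.13 ± 1.34 did not pass (SE, n = 2 per cell type; limma adjusted p = 0.608), and it was -0.16 without male germ cells and -0.39 without female somatic cells. Per kb, Itgb3 made up 21.4% of the beta chain signal of male germ cells and at most 3.59% in the other 3 libraries. Megakaryocyte markers summed to 11.1 SPM (male) and 3.73 SPM (female) in germ cells, against 7.88 SPM (male) and 4.76 SPM (female) in somatic cells, and their part in the Itgb3 levels was not tested.

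The remaining beta chains were low. Itgb2, of leukocytes, stood at 1.05 SPM in the male and 2.34 SPM in the female germ library, against 3.16 SPM in the male and 1.45 SPM in the female somatic library. Itgb7, of gut-homing lymphocytes, and Itgb2l, a relative of Itgb2, stayed under 5 SPM in every library. Itgb6, of epithelia, was not tested, with 0.219 SPM in the male and 0.237 SPM in the female germ library, and was listed at 0 in both somatic libraries.

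Male and female germ cells were then compared across the set by size, with a gene counted at 2-fold or more and 1 SPM or more in the higher library. Of 39 genes with 1 SPM in either germ library, 17 were counted as higher in males (43.6%), against 31.7% of all genes. There were 7 counted as lower in males (17.9%), against 24.2% of all genes. The 17 included Itga1, Itga4, Itga8, Itga10, Itga11, Itgal, Itgb2l, Itgb3, Itgb4, Itgb7, Itgb8, Lama3, Lama5, Lamb1, Lamb3 and Nid1, and the 7 were Itga6, Itgav, Itga2b, Itgb2, Lama2, Lama4 and Lamb2. The median log2 ratio was 0.41 over the 39 genes and 0.09 over all genes. Several of the 17 rest on few reads: Itgb2l was higher in males 73.7-fold (interval 8.42 to 1934) with 1 fragment in the female library, and Itgb7 and Itgb8 had 4 fragments each there. The log2 ratios of Lama1, Lamc1, Itgb1 and Agrn were small, at -0.12 (-0.19 to -0.05) for Lama1, 0.14 (0.06 to 0.22) for Lamc1, -0.30 (-0.37 to -0.24) for Itgb1 and -0.35 (-0.42 to -0.27) for Agrn. At 4-fold and 5 SPM, 9 of 28 genes were higher in males, against 14.0% of all genes, and 1, Lamb2, was lower, against 10%. At 2-fold and 5 SPM these were 12, against 26.8%, and 6, against 26.3%.

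Fewer genes of the set, as of all genes, differed between male and female somatic cells than between male and female germ cells. By the same rule, 8 of 39 were counted as higher in males (20.5%), against 11.7% of all genes, and 2 as lower (5.13%), against 10.4%. The 8 were Itga4, Itga9, Itgb2, Itgb2l, Itgb3, Itgb8, Lama2 and Lamc3, and the 2 were Itga6 and Lamb3. Lama2 was higher in males 5.12-fold (interval 4.91 to 5.33), Itga9 4.14-fold (interval 4.02 to 4.26) and Itgb8 3.75-fold (interval 3.45 to 4.07). Nid1 at 1.94-fold and Hspg2 at 1.94-fold lay just under the rule, both higher in males. The median log2 ratio was 0.09 over the 39 genes and 0.01 over all genes. At 2-fold and 5 SPM, 6 of 28 were higher, against 9.61% of all genes, and 1 lower, against 8.26%. At 4-fold and 5 SPM these were 5, against 3%, and 0, against 3.17%.

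Itga4, Itgb2l, Itgb3 and Itgb8 were counted as higher in males in both cell types and Itga6 as lower in both. Marker sums also differed between the somatic libraries. Sertoli markers summed to 479 SPM, fetal Leydig markers to 805 SPM and smooth muscle markers to 1289.6 SPM in males, against 38.9 SPM, 90.5 SPM and 239 SPM in females. Their part in the somatic differences of Itga4, Itga9, Lama2 and the other genes was not tested.

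**Figure D4:**
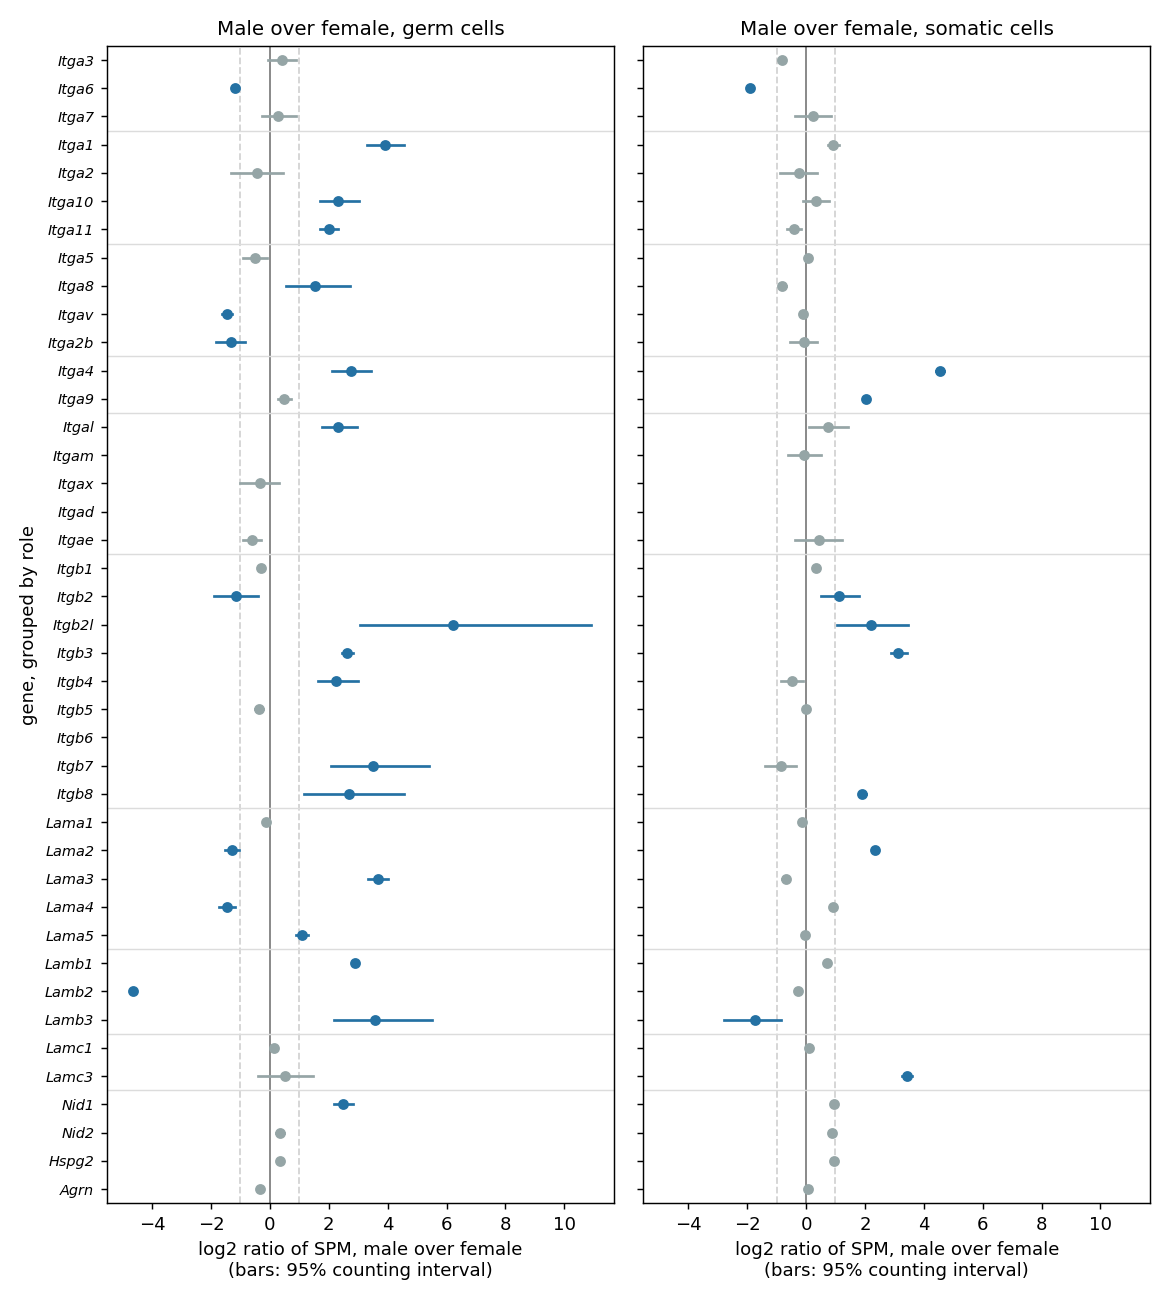
Log2 ratio of SPM, male over female, in germ cells and in somatic cells, for genes of the set at 1 SPM or more in either library of the pair. Points are ratios of 1 library to 1, bars are 95% counting intervals, dashed lines mark 2-fold and blue marks the genes counted. Lamb2 is the lowest ratio in germ cells and Itga4 the highest in somatic cells.

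Genes that work with these proteins were followed in 3 lists. Of 25 integrin adaptors and focal adhesion genes, 7 fell in germ cells and none rose (limma, adjusted over all genes), against 5.56% of all genes tested that fell and 2.50% that rose, with a median log2 difference of -1.81, against -0.11 over all genes tested. The 7 were Tln1, Parva, Zyx, Tns1, Tns3, Flna and Tgfb1i1. Tln1, the talin that switches integrins on, stood at 96.7 SPM (male) and 88.6 SPM (female) in germ cells, against 716 SPM (male) and 666 SPM (female) in somatic cells, a difference of -2.89 ± 0.35 (SE, n = 2 per cell type; limma adjusted p = 0.0336). Parva, which joins integrin-linked kinase to actin, stood at 5.41 SPM (male) and 9.06 SPM (female) in germ cells, against 205 SPM (male) and 196 SPM (female) in somatic cells (limma adjusted p = 0.0328). In both genes the sexes were within 2-fold and the cell types far apart.

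Of 24 basement membrane partners and integrin ligands, 10 fell and none rose, beside the same 5.56% and 2.50% of all genes, with a median of -2.86. They were Col4a1, Col4a2, Col4a6, Tnc, Fras1, Frem1, Pxdn, Sparc, Fbln1 and Fbln2. Col4a1, a chain of the type IV collagen network, stood at 28.2 SPM in the male and 31.9 SPM in the female germ library, against 1644 SPM in the male and 339 SPM in the female somatic library (limma adjusted p = 0.0396). Tnc, a tenascin bound by Itga9, stood at 8.795 SPM (male) and 2.37 SPM (female) in germ cells, against 101 SPM (male) and 138 SPM (female) in somatic cells (limma adjusted p = 0.0379). Frem1, of the complex that anchors epithelia to the basement membrane, stood at 16.8 SPM (male) and 6.29 SPM (female) in germ cells, against 873 SPM (male) and 448 SPM (female) in somatic cells (limma adjusted p = 0.0328).

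The list of other receptors, mostly of laminin, held 7 genes, among them the collagen receptor Ddr1. Of these, the syndecans Sdc1 and Sdc2 fell and none rose, again beside 5.56% and 2.50% of all genes, with a median of -1.24. Sdc4 and Ddr1, named after their values were seen, did not pass and were far higher in male than in female germ cells. Sdc4, a syndecan of focal adhesions, stood at 2322 SPM in the male and 33.1 SPM in the female germ library, against 222 SPM in the male and 461 SPM in the female somatic library (limma adjusted p = 0.957). Ddr1, a collagen receptor kinase, stood at 326 SPM (male) and 11.6 SPM (female) in germ cells, against 154 SPM (male) and 133 SPM (female) in somatic cells (limma adjusted p = 0.638).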

How the data were processed

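RNA signal per gene was measured in 4 libraries, 1 per group, grouped by the labels. Per the submitters' processing notes, mm9, TopHat 1.2.0, CASAVA 1.9 and edgeR (no version) were used. The counter, its annotation and any use of strand: not given in the sources used here. Deposited values are a gene-level signal, called counts per the file headers. All are whole, yet the low ones gather at a spacing of 4.105 (male germ, female somatic), 6.065 (female germ) or 6.105 (male somatic), and 43.1% to 54.3% of them lay on it, against 15.0% to 23.3% by chance. They were therefore treated as scaled, and the spacing as the worth of 1 fragment. Fragment numbers are estimates, and intervals and floors (3 fragments, 0.113 to 0.180 SPM) cover counting error only, at 95% confidence.

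From these values, 74 repeated rows were removed, library totals were adjusted by trimmed mean of M (TMM) factors (0.945 to 1.07), and SPM was computed. Germ and somatic cells were compared on log2(SPM + 0.5), a scale that understates the change of low genes, with limma 3.58.1 in R 4.3.3, a trend of variance on mean level, and p-values adjusted by Benjamini-Hochberg over every gene that reached 1 SPM in 2 or more libraries. Between the sexes, exact conditional binomial intervals of fragment ratios were computed, with no p-value. Coordinates are mm9 as the files give them, counted from 1. A Cdkn2d row with a listed span from 21092908 to 123839607 on chromosome 9 covers Lamb2, Itga9 and Itga11. Itga4 overlaps Cerkl, Itgb4 overlaps Galk1 and Nid2 overlaps 2700060E02Rik on the other strand, so their values are uncertain in the same way as that of Itgae. Itga1 overlaps Pelo on the same strand, where strand could not separate their reads, so its values are uncertain as well. The genes and lists were chosen with earlier results of these data known. All 42 genes entered the fit and the counts where they passed its filter, and 1 of them is not reported here by itself or drawn. Genes outside the set were named from the lists when they passed the test or marked a cell type, apart from neighbours and those said to be chosen later. Alternatives were other scalings, pseudocounts, filters and size rules, no trend, sex as a term, and each library left out.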

Additional observations from a re-analysis of the deposited data

Results flagged for a closer look

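Lama2, Itgb2 and Lamb3 stood at opposite sides of 2-fold between the sexes in the 2 cell types, and the difference between cell types was not tested, since each ratio sets 1 library against 1. The log2 ratio of male to female of Lama2 was -1.29 in germ cells and 2.36 in somatic cells. For Itgb2 it was -1.15 in germ cells and 1.12 in somatic cells, on 28 to 53 fragments per library. For Lamb3 it was 3.58 in germ cells and -1.72 in somatic cells, on 4 fragments in female germ cells and 12 in male somatic cells.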

How the results depend on the processing

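Over all genes, 354 were higher and 786 lower in germ cells (limma, adjusted p under 0.05), and 11 of the set were lower. With no filter on low values these became 0, 0 and 0 (limma; at an unadjusted p under 0.05, 2025 higher and 2600 lower, and 2 and 19 of the set). The labels give no replicate numbers beyond 1, and with sex as a term in the place of a replicate block there were 1094 higher, 1955 lower and 18 of the set lower. With each library left out in turn, where the lone library of a cell type is assumed to vary like the other pair, all genes ran from 139 to 1754 higher and 186 to 2508 lower, and the set from 0 to 1 higher and 2 to 18 lower. Upper-quartile scaling left 8 of the 11 (without Lamc1, Nid1 and Hspg2), with 541 of all genes lower. No trend left 9 (without Lamc1 and Hspg2), with 907 of all genes lower. Between male and female germ cells, 4-fold and 5 SPM gave 9 higher and 1 lower, and 2-fold with no minimum, chosen after seeing the data, gave 18 and 7. Between somatic cells, 4-fold and 5 SPM gave 5 and 0, and 2-fold and 5 SPM gave 1 lower. Of the log2 differences, Itgb2l turned to 0.058 without TMM, 0.14 with upper-quartile scaling and 0.088 with a pseudocount of 1. With libraries left out, these genes, none of which passed with all 4, changed sign: Itga10 from -1.37 to 0.60, Itga11 from -1.26 to 0.65, Itga2b from -0.76 to 0.39, Itgal from -0.22 to 1.80, Itgb2 from -0.80 to 0.11, Itgb2l from -0.66 to 1.33, Itgb3 from -0.39 to 2.65, Lama3 from -3.52 to 0.016, Lamb2 from -3.18 to 1.44 and Lamb3 from -0.90 to 0.81. The cause was not tested. Of 164 alternatives for single sex ratios, 113 stayed within the counting interval and 51 moved beyond it. Among genes counted as higher or lower, 0 changed sign. Sign changes of the genes not counted, whose ratios were under 2-fold or low, were not recorded. The median gene shifted between scalings from -0.11 to 0.04 for germ minus somatic and from 0.04 to 0.29 for male minus female germ cells. Depth limits the genes near the floor of 3 fragments.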
